A study of Mus musculus with 6 samples.

Results

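The miR-106a-363 cluster on the X chromosome and the miR-106b-25 cluster on chromosome 5 are paralogs of the miR-17-92 cluster. Their 9 hairpins, Mir106a, Mir18b, Mir20b, Mir19b-2, Mir92-2 and Mir363 of the X-linked cluster and Mir106b, Mir93 and Mir25 of the other, were followed in small RNA of J1 mouse embryonic stem cells. The hairpins were chosen by name, with earlier results of these data known. They are 9 of 1174 mouse hairpins with a Mir symbol that were searched, of which 869 had a matching tag. A tag is a read sequence with its count, and numbers of tags are read counts, not numbers of distinct sequences. Tags of 18 to 26 bases that matched a hairpin exactly on the sense strand were summed for its 5p and its 3p arm in each library. The 9 hairpins gave 18 of the 1264 arms that had a tag, and 16 of the 18 reached 10 CPM (counts in 1000000 microRNA tags) in at least 1 library, as did 565 arms in all.

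J1 is an established line of mouse embryonic stem cells, which was adapted here to gelatin and grew in a serum replacement medium with 1000 U/ml of leukemia inhibitory factor, the cytokine that holds such cells in self-renewal. All groups shared these conditions and were collected after 24 h. The treatments were 1 µM retinoic acid (RA), which induces differentiation, 1 µM BIO or 3 µM CHIR99021, which both inhibit the kinase GSK3, each set against 1 µL of the vehicle DMSO, and 50 µg/ml vitamin C (VC), a cofactor of dioxygenases, set against 1 µL of the vehicle ddH2O. Each of the 6 groups had 1 library, so there is no replicate and no p-value, and a ratio between libraries compares those libraries, not the conditions. Ratios carry a 95% exact conditional binomial interval (Clopper-Pearson), which covers counting error only, and since the reads carry no molecular identifier, they are not counts of independent molecules.

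MicroRNA clusters of this kind are transcribed as 1 precursor that carries several hairpins, and each hairpin gives a duplex from which mostly 1 arm, the guide, enters an Argonaute protein. The guide finds its targets mainly through its seed, bases 2 to 8, and microRNAs with the same seed share many predicted targets. The miR-17-92 cluster and its paralogs are known for promoting proliferation, partly by repressing inhibitors of the cell cycle, and their microRNAs with the miR-17 seed are known from pluripotent cells.

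The X-linked cluster spanned 875 bases of the minus strand (GRCm38, chrX:52741693-52742567), in the order Mir106a, Mir18b, Mir20b, Mir19b-2, Mir92-2 and Mir363 along the transcript. In the GENCODE annotation no transcript of another gene spanned any of these hairpins, and the noncoding gene Kis2 overlapped Mir106a without spanning it. The miR-106b-25 cluster spanned 498 bases (chr5:138165321-138165818, minus strand) within Mcm7, which encodes a subunit of the replicative helicase. Of the 10 annotated Mcm7 transcripts 2 spanned Mir106b and 3 spanned Mir93 and Mir25, and of those 3, 1 overlapped Mir93 and Mir25 with an exon, so that the hairpins otherwise lie in introns. The paralogous miR-17-92 cluster spanned 836 bases of chromosome 14 (chr14:115043671-115044506, plus strand) in the noncoding gene Mir17hg.

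The mature sequences from RefSeq (GRCm38.p6) are shown because the seed, in capitals at bases 2 to 8, sets which members act as relatives and the other bases set which tags can be told from those of miR-17-92. The first group carries the seed AAAGUGC of miR-17-5p.
miR-106a-5p: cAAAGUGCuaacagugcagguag
miR-20b-5p: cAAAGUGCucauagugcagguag
miR-106b-5p: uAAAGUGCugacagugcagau
miR-93-5p: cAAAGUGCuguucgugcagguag
miR-17-5p: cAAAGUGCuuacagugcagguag
The second group carries the seed AUUGCAC, and miR-92a-3p is the same in Mir92-2 and in Mir92-1 of miR-17-92.
miR-25-3p: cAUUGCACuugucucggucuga
miR-92a-3p: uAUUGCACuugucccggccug
miR-363-3p: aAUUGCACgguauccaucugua
The remaining arms listed by seed are miR-18b-5p with its paralog miR-18a-5p, and miR-19b-3p, which is the same in Mir19b-2 and in Mir19b-1 of miR-17-92.
miR-18b-5p: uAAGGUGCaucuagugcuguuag
miR-18a-5p: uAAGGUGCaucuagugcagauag
miR-19b-3p: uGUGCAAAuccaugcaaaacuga

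Counted from 1 at the 5′ end and given with the base of the miR-17-92 microRNA first, miR-106a-5p differs from miR-17-5p by U10A alone, and miR-20b-5p from miR-20a-5p by U1C and U10C. MiR-93-5p differs from miR-17-5p by U10G, A11U, C12U and A13C, and miR-106b-5p by C1U, U10G and G20A over the 21 positions they share. MiR-18b-5p differs from miR-18a-5p by A18U and A20U, and miR-25-3p from miR-92a-3p by U1C, C14U and C18U. Exact matching kept these apart, since 0 tags of the other arms were shared with miR-17-92. Of the 85423 tags that matched the 3p arm of Mir92-2, 85.5% also matched Mir92-1, and of the 4536 tags of the 3p arm of Mir19b-2, 99.3% also matched Mir19b-1. MiR-92a-3p and miR-19b-3p are therefore given as levels shared with miR-17-92.

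The libraries held 19373152 tags for RA, 22258922 for BIO, 23758363 for CHIR99021, 18870345 for DMSO, 20600614 for VC and 20362550 for ddH2O. MicroRNA tags numbered 731469 in the RA library, 2103738 in BIO, 1433022 in CHIR99021, 2160133 in DMSO, 1899890 in VC and 1752225 in ddH2O, which is 3.78% of the RA library and 6.03 to 11.4% of the others. As a one-sided limit, a count of 0 allows up to 3 counts, or 4.10 CPM in RA and 1.39 to 2.09 CPM in the others. The stem cell cluster miR-290-295 (5 of the 6 listed hairpins were found under their symbol, Mir292a was not) summed to 153925 CPM in RA and 251093 to 317904 CPM in the others, and let-7 to between 72360 and 97506 CPM. The fibroblast and feeder list of Mir143, Mir145a, Mir199a-1 and Mir214 was not at 0, with 2212 CPM in RA and 1472 to 2166 CPM in the others, and its part in the levels below was not tested.

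Together the 9 hairpins, shared arms included, made up 7.51% of the microRNA tags in RA, 7.50% in BIO, 7.88% in CHIR99021, 8.73% in DMSO, 8.80% in VC and 8.85% in ddH2O. MiR-25-3p was the most abundant member arm in every library and ranked 5 of 1264 arms by its mean level. It stood at 35214 CPM in RA, 37951.5 in BIO, 40353 in CHIR99021, 45709 in DMSO, 47327.5 in VC and 49259 in ddH2O. It was thus lowest after RA and highest in a vehicle, with 1.40-fold between these libraries.

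Among the other arms of the miR-106b-25 cluster, miR-93-5p, of the miR-17 seed family, had 6018 CPM in RA, 3247 in BIO, 3940 in CHIR99021, 3301 in DMSO, 5889 in VC and 5163 in ddH2O. RA, VC and ddH2O lay above BIO, CHIR99021 and DMSO, so the vehicles fell on different sides. MiR-106b-5p, of the same seed, had 1266 CPM in RA, 1131 in BIO, 1282 in CHIR99021, 1113 in DMSO, 1358 in VC and 1518 in ddH2O, and its partner miR-106b-3p had 988 CPM in RA, 1121 in BIO, 1232 in CHIR99021, 1123 in DMSO, 1025 in VC and 1168 in ddH2O. Both arms of Mir106b thus stayed within 1.36-fold over the libraries. MiR-25-5p, the partner of miR-25-3p, had 3664 CPM in RA, 7667 in BIO, 6922 in CHIR99021, 7689 in DMSO, 4778 in VC and 4769 in ddH2O, so it was low in the libraries in which miR-93-5p was high. MiR-93-3p had 4.63 to 9.57 CPM and stayed under the minimum.

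In the X-linked cluster the most abundant own arm was miR-363-5p, for which the RefSeq table used here lists no mature sequence. It had 8148 CPM in RA, 9787 in BIO, 9303 in CHIR99021, 8512 in DMSO, 8252 in VC and 8026 in ddH2O, the narrowest range of the members at 100 CPM or more on average (1.22-fold). MiR-92a-2-5p, the own arm of Mir92-2, had 1185 CPM in RA, 2858 in BIO, 2399 in CHIR99021, 2453 in DMSO, 1192 in VC and 786 in ddH2O. That is the widest range of these members, 3.63-fold, and it lies between BIO and a vehicle. MiR-363-3p, the arm with the miR-25 seed, had 1221 CPM in RA, 1089 in BIO, 1201 in CHIR99021, 1293 in DMSO, 1270 in VC and 1385 in ddH2O.

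The miR-17 relatives of this cluster were less abundant. MiR-20b-5p had 614 CPM in RA, 437 in BIO, 455 in CHIR99021, 409 in DMSO, 498 in VC and 504 in ddH2O, and miR-106a-5p 372 CPM in RA, 265 in BIO, 340 in CHIR99021, 271 in DMSO, 339 in VC and 311 in ddH2O. Both were highest in RA, and for both BIO and DMSO did not differ beyond the counting interval. MiR-18b-5p had 153 CPM in RA, 109 in BIO, 174 in CHIR99021, 133 in DMSO, 209 in VC and 156 in ddH2O. Their 3p partners were rare, with 14.4 to 33.7 CPM for miR-106a-3p, 9.13 to 27.3 CPM for miR-18b-3p and 4.10 to 25.8 CPM for miR-20b-3p. MiR-19b-2-5p had 3 tags in all.

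Of the shared arms, miR-92a-3p had 15537 CPM in RA, 9009 in BIO, 10746 in CHIR99021, 14813 in DMSO, 15319 in VC and 14815 in ddH2O. Both GSK3 inhibitor libraries lay under all others. MiR-19b-3p, which shares its seed with miR-19a-3p, had 596 CPM in RA, 308 in BIO, 423 in CHIR99021, 433 in DMSO, 443 in VC and 612 in ddH2O, and BIO was again the lowest. Over the 13 members at 100 CPM or more on average, the highest library exceeded the lowest by a median of 1.5-fold, against 2.22-fold over all 252 arms at that level.

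**Figure D1:**
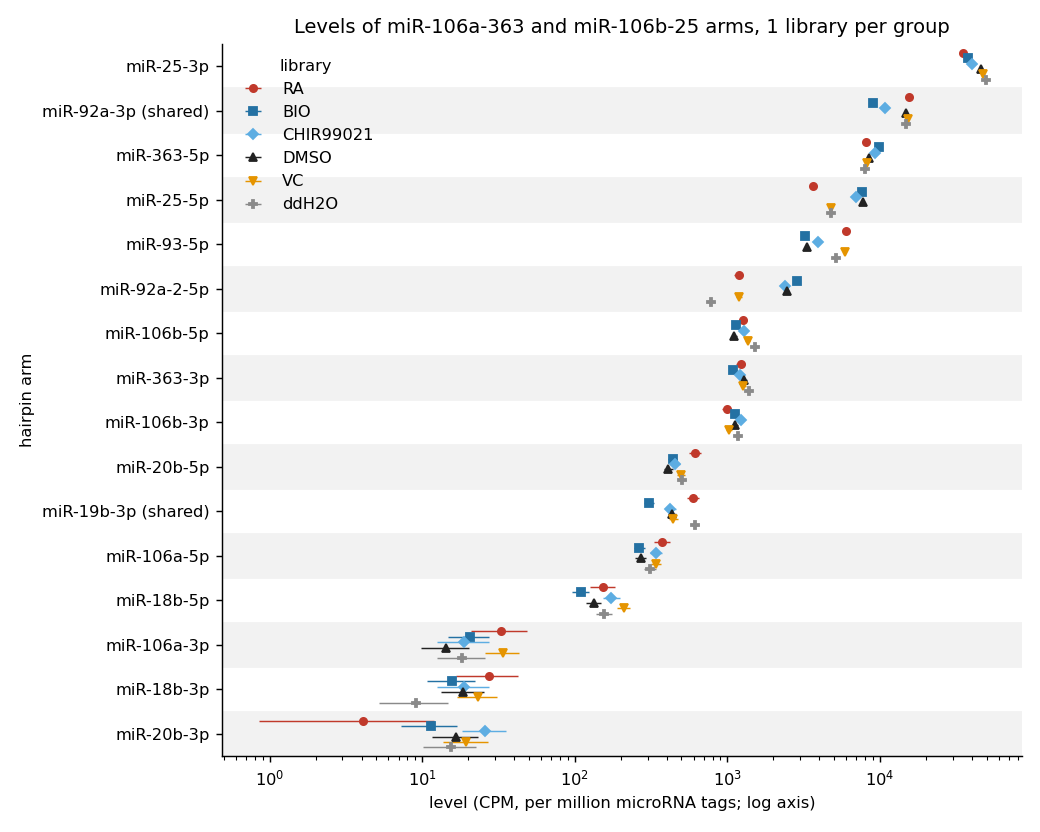
Level of each member arm at 10 CPM or more (rows) in each library on a log axis in CPM, with 95% exact Poisson counting intervals as bars; miR-92a-3p and miR-19b-3p are shared with miR-17-92. MiR-25-3p sits between 35214 and 49259 CPM, and miR-92a-2-5p spreads most among the abundant arms, with 2858 CPM in BIO and 786 CPM in ddH2O.

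Summed over the arms that belong to 1 cluster alone, miR-106b-25 reached 47160 CPM in RA, 51126 in BIO, 53737 in CHIR99021, 58939 in DMSO, 60387 in VC and 61884 in ddH2O. The own arms of miR-106a-363 reached 11757 CPM in RA, 14592 in BIO, 13936 in CHIR99021, 13121 in DMSO, 11838 in VC and 11212 in ddH2O. Those of miR-17-92 gave 3027 to 3373 CPM, less than those of either paralogous cluster. These sums leave out the shared miR-92a-3p. Over all libraries 46062 of its tags had a 3′ end particular to Mir92-1 and 12237 one particular to Mir92-2. The sums therefore do not rank the clusters as sources of tags. The sum of miR-106b-25 was 0.80 of DMSO in RA (0.791 to 0.810), 0.867 in BIO (0.860 to 0.875) and 0.912 in CHIR99021 (0.904 to 0.920), and 0.976 of ddH2O in VC (0.968 to 0.984), while ddH2O stood at 1.05 of DMSO (1.04 to 1.06). The sum of miR-106a-363 was 0.896 of DMSO in RA (0.875 to 0.918), 1.11 in BIO (1.09 to 1.13) and 1.06 in CHIR99021 (1.04 to 1.08), and 1.06 of ddH2O in VC (1.04 to 1.08), with ddH2O at 0.854 of DMSO (0.839 to 0.870). The distance of RA from DMSO in the X-linked sum was thus no larger than the distance of one vehicle from the other. Relative to all microRNA tags the sums of the clusters differed in direction in BIO and in CHIR99021 against DMSO. Relative to all deposited tags, which moves every log2 ratio by -0.28 in BIO and -0.92 in CHIR99021, both sums were lower there. Each sum is mostly 1 arm, in DMSO miR-25-3p with 45709 of 58939 CPM and miR-363-5p with 8512 of 13121 CPM. Within each cluster the arms went both ways by exact matches. In CHIR99021 miR-93-5p stood at 1.19 of DMSO and miR-25-3p at 0.883. In BIO miR-363-5p stood at 1.15 of DMSO and miR-363-3p at 0.842. A further 2634 miR-363-3p tags in BIO and 2100 in DMSO ended in bases the hairpin does not encode and are left out. The direction of miR-363-3p therefore holds for exact matches alone.

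RA against DMSO asks which members accompany the start of differentiation. A call needed a ratio of 2-fold or more with an interval that leaves out 1, and 10 CPM or more in whichever library was higher. By this rule 1 of 16 member arms was higher in RA, against 32.4% of all 540 arms compared, and 3 were lower, against 7.41% of all arms. The median log2 ratio was 0.13 over the members and 0.46 over all arms. Among arms at 100 CPM or more, 9 of 13 members and 127 of 279 arms in all lay within 1.5-fold. The lower members were miR-25-5p, 2.10-fold (2.01 to 2.19), miR-92a-2-5p, 2.07-fold (1.93 to 2.23), and the rare miR-20b-3p, 4.06-fold (1.28 to 20.6) with 3 tags in RA and 36 in DMSO. MiR-106a-3p was 2.29-fold higher (1.28 to 4.02), with 24 tags in RA and 31 in DMSO. Of the guides, miR-93-5p had the highest ratio, 1.82 (1.76 to 1.89), miR-20b-5p stood at 1.5 (1.34 to 1.68), miR-106a-5p at 1.37 (1.18 to 1.59) and miR-25-3p at 0.770 (0.760 to 0.781), none of them called.

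Several of these calls depend on the control library or the counting. Against ddH2O in place of DMSO, miR-25-5p was not called (log2 ratio -0.38), miR-92a-2-5p turned to 0.59 and miR-106a-3p to 0.85, which is not called. MiR-20b-3p was still called lower against ddH2O (-1.71), and miR-18b-3p was called higher (1.57), with 20 tags in RA and 16 in ddH2O. With tags of several hairpins left out, miR-92a-2-5p was just short of a call (ratio 0.501), and with the most abundant tag alone neither miR-20b-3p (-1.16) nor miR-106a-3p (1.08) was called. The call of miR-106a-3p also ended under TMM (0.62) and median-of-ratios scaling (0.83), since RA carries many higher arms and these scalings move all its log2 ratios by -0.58 and -0.37. Under TMM the log2 ratio of miR-93-5p was 0.28, that of miR-20b-5p 0.00 and that of miR-106a-5p -0.13, and with all deposited tags as the total all 3 were negative, so the direction of these guides in RA rests on the scaling. Counted by its most abundant tag alone, miR-93-5p was called higher in RA, at a log2 ratio of 1.34.

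BIO and CHIR99021 against DMSO ask which members follow inhibition of GSK3. No member arm was called in BIO, against 1.89% of 477 arms higher and 5.03% lower, and none in CHIR99021, against 5.99% of 484 arms higher and 12.2% lower. Within 1.5-fold of DMSO were 12 of 13 members at 100 CPM or more in BIO (210 of 248 arms in all) and 13 of 13 in CHIR99021 (166 of 252 arms). The member outside 1.5-fold in BIO was the shared miR-92a-3p, 1.64-fold lower (1.61 to 1.67), which was 1.38-fold lower in CHIR99021 (1.35 to 1.41). MiR-19b-3p, also shared, was 1.41-fold lower in BIO (1.27 to 1.56) and at a ratio of 0.977 in CHIR99021 (0.881 to 1.08). The own arms of Mir363 showed 1.15 in BIO (1.13 to 1.17) and 1.09 in CHIR99021 (1.07 to 1.12) for miR-363-5p, against 0.842 (0.796 to 0.890) and 0.929 (0.874 to 0.986) for miR-363-3p. MiR-363-3p tags that end in 1 to 3 bases not encoded by the hairpin are left out. They were 53.5% of its tags in BIO, 50.4% in CHIR99021 and 42.9% in DMSO. Its lower ratios therefore hold for exact matches alone. The median log2 ratio of the members was -0.03 in BIO and 0.13 in CHIR99021, beside -0.11 over all arms in each. RA, BIO, CHIR99021 and ddH2O are each set against the same DMSO library, so a level that is particular to that library enters all these ratios.

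VC against ddH2O asks which members follow vitamin C. Of 16 member arms 1 was higher, against 5.71% of 490 arms, and 0 were lower, against 1.02%. The member called was miR-18b-3p, 2.54-fold higher (1.40 to 4.82) with 44 tags in VC and 16 in ddH2O. MiR-92a-2-5p was 1.52-fold higher (1.42 to 1.62) and the only member at 100 CPM or more outside 1.5-fold, where 12 of 13 members and 232 of 261 arms in all lay inside. MiR-25-3p stood at 0.961 (0.952 to 0.970), miR-93-5p at 1.14 (1.11 to 1.17) and miR-363-5p at 1.03 (1.00 to 1.05). Against DMSO in place of ddH2O, the log2 ratio of miR-18b-3p was 0.32, which is not called, that of miR-92a-2-5p was -1.04, which is called lower, and that of miR-106a-3p was 1.22, called higher.

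ddH2O against DMSO sets the vehicle libraries against each other. No member of 16 was higher, against 5.35% of 486 arms, and 2 were lower, against 2.47%. The lower members were miR-92a-2-5p, 3.12-fold (2.94 to 3.31) at 786 against 2453 CPM, and miR-18b-3p, 2.03-fold (1.11 to 3.88). MiR-25-5p was 1.61-fold lower (1.57 to 1.66), and miR-93-5p had a ratio of 1.56 (1.52 to 1.61). The members' median log2 ratio of 0.10 lay beside 0.11 over all arms, and 10 of 13 members at 100 CPM or more were within 1.5-fold, as were 210 of 256 arms in all. For miR-92a-2-5p the vehicles lay farther apart than RA and DMSO did.

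**Figure D2:**
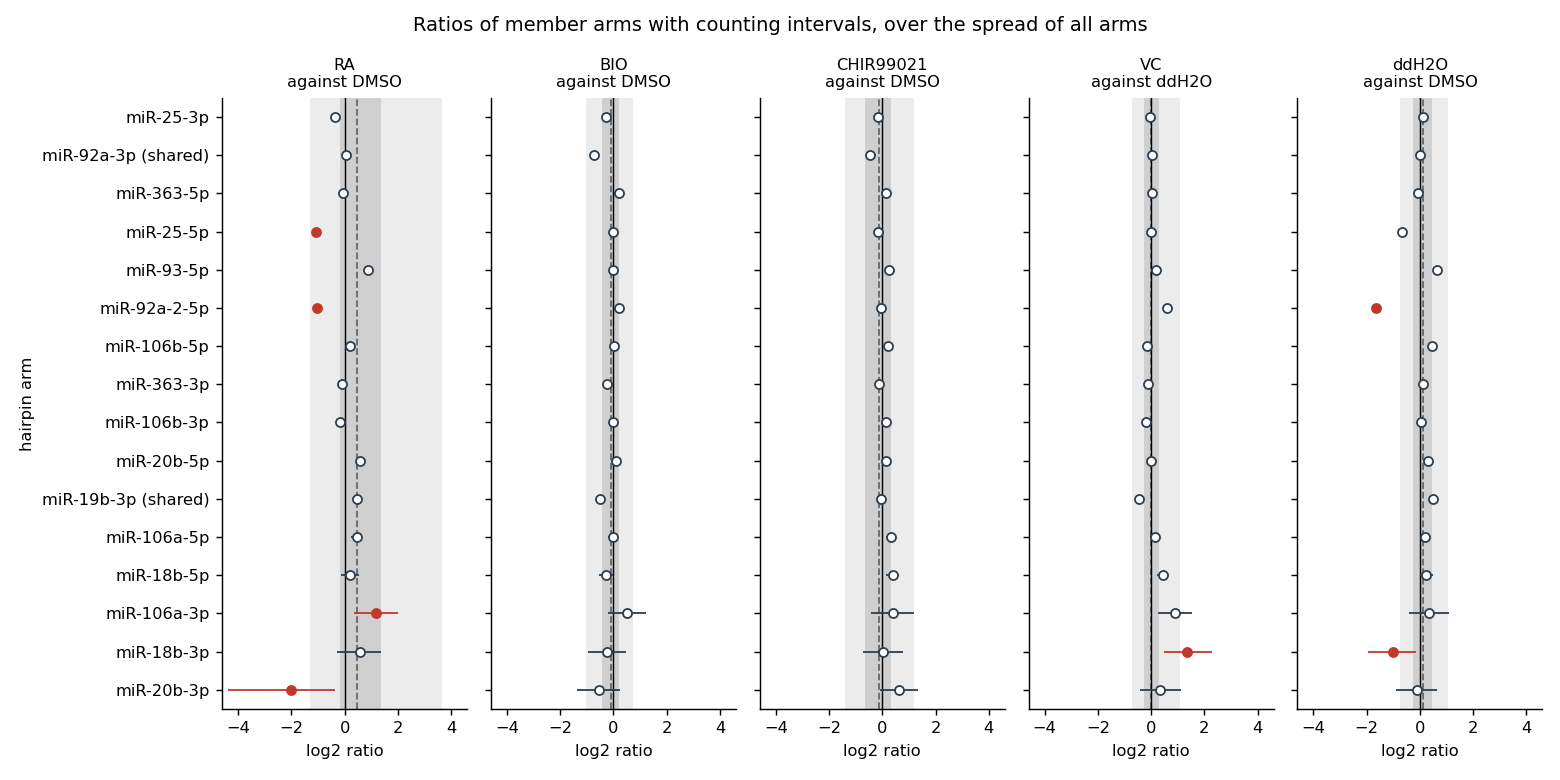
Log2 ratio of each member arm in the 5 comparisons (panels), with 95% counting intervals; filled red points are called, the dark and light bands hold the middle 50% and 90% of all arms compared, and the dashed line is their median. In RA against DMSO the members' points lie mostly at or below the median of all arms, 0.46, and miR-25-5p and miR-92a-2-5p are low both in RA and in ddH2O against DMSO.

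The balance of the arms differed between hairpins and, for some, between libraries. The 5p arm gave 9.42% of the Mir25 tags in RA, 16.8% in BIO, 14.6% in CHIR99021, 14.4% in DMSO, 9.17% in VC and 8.83% in ddH2O. RA, VC and ddH2O thus lay below BIO, CHIR99021 and DMSO. For Mir92-2 the own 5p arm relative to the shared 3p arm followed the same division, with 7.09% in RA, 24.1% in BIO, 18.3% in CHIR99021, 14.2% in DMSO, 7.22% in VC and 5.04% in ddH2O. Mir106b gave nearly equal arms, with 56.2% 5p in RA, 50.2% in BIO, 51.0% in CHIR99021, 49.8% in DMSO, 57.0% in VC and 56.5% in ddH2O. Mir363 was mostly 5p in all libraries, 85.3 to 90.0%, and Mir93 almost wholly, 99.8 to 99.9%. Mir106a gave 91 to 95% 5p, Mir20b 94.6 to 99.3% and Mir18b 84.8 to 94.5%.

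**Figure D3:**
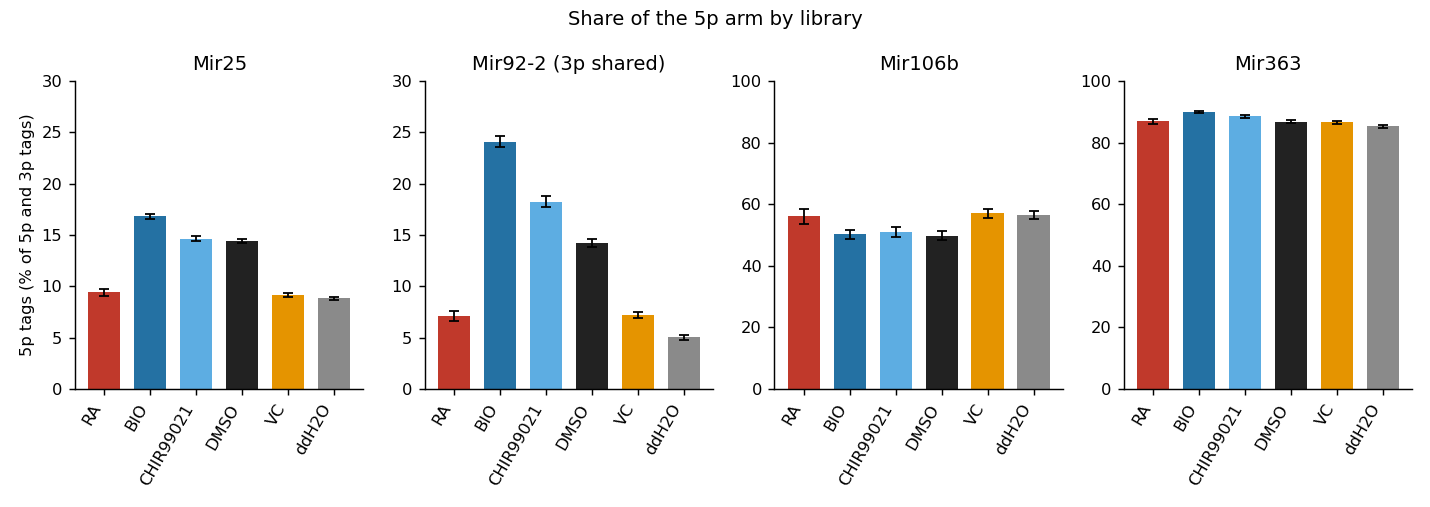
Share of 5p tags among the 5p and 3p tags of 4 hairpins in each library, with 95% Clopper-Pearson intervals; the vertical axis ends at 30% for Mir25 and Mir92-2 and at 100% for Mir106b and Mir363. Mir25 and Mir92-2 have low shares in RA, VC and ddH2O (5.04 to 9.42%) and higher ones in BIO, CHIR99021 and DMSO (14.2 to 24.1%).

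The 5p arms that moved this way share a G-rich start, which is shown with the G count of the RefSeq sequence, 9 for miR-25-5p, 10 for miR-92a-2-5p and 8 for the paralogous miR-92a-1-5p. The capitals mark bases 2 to 8.
miR-25-5p: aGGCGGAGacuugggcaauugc
miR-92a-2-5p: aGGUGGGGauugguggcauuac
miR-92a-1-5p: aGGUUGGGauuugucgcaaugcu
MiR-92a-1-5p, of miR-17-92, had 463 CPM in RA, 677 in BIO, 623 in CHIR99021, 679 in DMSO, 406 in VC and 445 in ddH2O, which is the same division of the libraries. MiR-92b-5p, the 5p arm of another hairpin with the miR-25 seed on its 3p arm, had 850 CPM in RA, 1127 in BIO, 465 in CHIR99021, 882 in DMSO, 498 in VC and 581 in ddH2O, and did not divide them so, although its most abundant tag also begins AGG and has 12 G, the most of these arms. MiR-363-5p, whose most abundant tag has 6 G, stayed within 1.22-fold. These arms were set side by side after their values were seen, and whether base composition or library preparation plays a part was not tested.

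Tags that end at the first base by which the Mir92 hairpins differ give a partial view of which locus supplies miR-92a-3p. The tags of 22 bases read as follows, with the distinguishing base in capitals.
Mir92-1: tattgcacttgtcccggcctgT
Mir92-2: tattgcacttgtcccggcctgA
Of 46062 such tags from Mir92-1 and 12237 from Mir92-2, the Mir92-2 share was 22.3% in RA, 23.5% in BIO, 21.6% in CHIR99021, 20.1% in DMSO, 20.5% in VC and 18.9% in ddH2O. The X-linked copy therefore gave the smaller part of the distinguishing tags in every library. These tags were 33.9 to 64.9% of the arm, and an untemplated A or T after the 21 shared bases cannot be told apart from them. C or G followed the shared bases in 74 tags. For miR-19b-3p, 1 tag ended on the distinguishing base of Mir19b-1 and 6 on that of Mir19b-2, too few to compare the loci.

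MiR-363-3p was cut at more than 1 start. Over all libraries 57.7% of its 12537 tags began at the RefSeq start and 40.8% began 1 base later, which moves the seed by 1 base. The later start took 33.1% of tags in RA (30.1 to 36.3%), 41.4% in BIO, 44.3% in CHIR99021, 41.7% in DMSO, 38.9% in VC and 41.3% in ddH2O, so RA was lowest. The other member arms listed by seed were more uniform, with 95.1% of tags at the most abundant start for miR-106a-5p, 98.6% for miR-19b-3p, 98.9% for miR-92a-3p and 99.5 to 99.9% for miR-18b-5p, miR-20b-5p, miR-25-3p, miR-93-5p and miR-106b-5p.

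The same arm often carried 3′ bases that the hairpin does not encode. Tags that match the hairpin over at least 18 bases and then end in 1 to 3 other bases were counted apart from the exact matches, and the most abundant ones are shown with the untemplated bases in capitals.
miR-363-3p with 1 T: aattgcacggtatccatctgtaT
miR-363-3p, later start, with 1 T: attgcacggtatccatctgtaT
miR-363-3p, later start, with 2 T: attgcacggtatccatctgtaTT
Such ends were on 53.7% of all miR-363-3p tags in RA, 53.5% in BIO, 50.4% in CHIR99021, 42.9% in DMSO, 47.7% in VC and 49.9% in ddH2O. A single T made up most of them, 36.2% of the arm's tags over all libraries. Over all microRNA arms untemplated ends were on 15.5% of tags in RA and 10.6 to 12.4% in the others. Among the other members at 100 CPM or more the share over all libraries ran from 1.38% for miR-363-5p to 18.7% for miR-106a-5p, with 2.82% for miR-25-3p, 7.19% for miR-93-5p and 12.6% for miR-106b-5p. With untemplated ends counted, the 5p share of Mir363 was 75.9% in RA, 80.9% in BIO, 79.6% in CHIR99021, 79.2% in DMSO, 77.5% in VC and 74.6% in ddH2O.

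**Figure D4:**
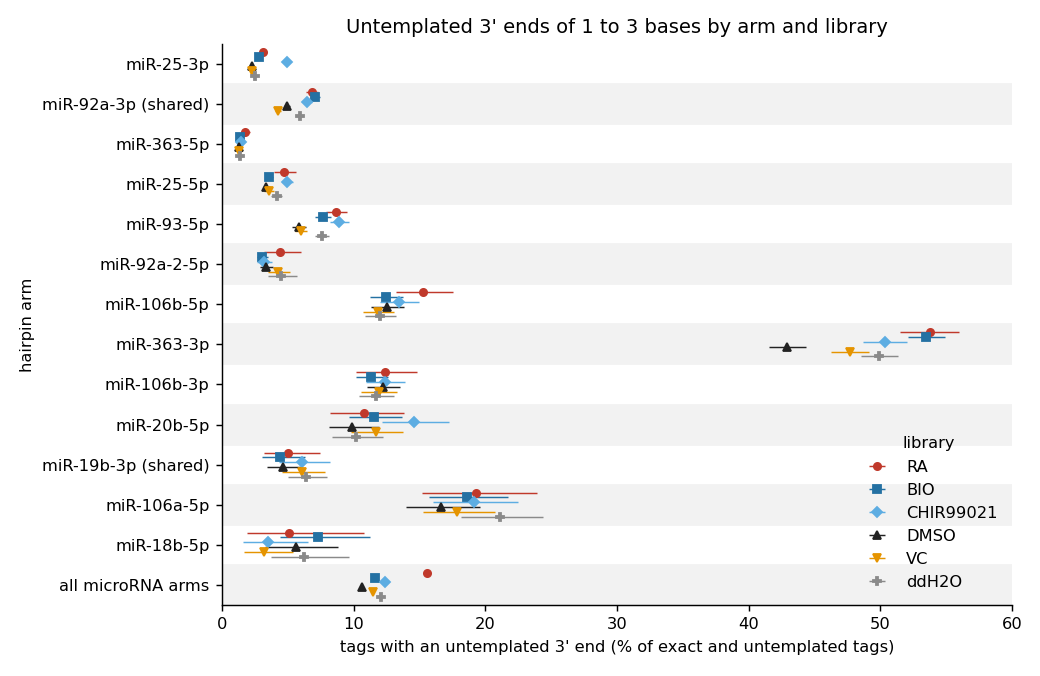
Share of tags with 1 to 3 untemplated 3′ bases for each member arm at 100 CPM or more in at least 1 library, and for all microRNA arms, by library with 95% Clopper-Pearson intervals. MiR-363-3p stands apart at 42.9 to 53.7%, and all microRNA arms together lie at 10.6 to 15.5%.

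MiR-18b-5p was mostly short. Its most abundant tag had 18 bases, the shortest length in the files, and this length held 47.3% of its tags in RA, 27.8% in BIO, 48.6% in CHIR99021, 47.4% in DMSO, 51.3% in VC and 42.1% in ddH2O. Its paralog miR-18a-5p had 0.350% of its tags at 18 bases over all libraries and 62.4% in its most abundant tag, of 21 bases. The most abundant tags show where they end, with the bases at positions 18 and 20, by which the paralogs differ, in capitals.
miR-18b-5p, most abundant: taaggtgcatctagtgcT
miR-18b-5p, next: taaggtgcatctagtgcTgT
miR-18a-5p, most abundant: taaggtgcatctagtgcAgAt
Without tags of 18 and 19 bases miR-18b-5p had 60.2 CPM in RA, 65.1 in BIO, 67.7 in CHIR99021, 47.7 in DMSO, 74.2 in VC and 74.8 in ddH2O, since tags of 18 and 19 bases were 57.8% of its tags over all libraries and 40.4% in BIO, the lowest. The shortest deposited tags have 18 bases, so an arm trimmed further is not counted, and an untemplated T after the 17 bases that both paralogs share cannot be told apart from the 18-base tag of Mir18b.

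The 3′ ends of the abundant guides also differed by library. The full tag of miR-25-3p, 22 bases long, held 74.1% of its tags in RA, 79.9% in BIO, 70.4% in CHIR99021, 63.8% in DMSO, 65.0% in VC and 73.9% in ddH2O. For miR-92a-3p the tag of 20 bases held 38.0% in RA, 21.1% in BIO, 41.5% in CHIR99021, 49.2% in DMSO, 47.7% in VC and 35.9% in ddH2O, and for miR-93-5p the tag of 23 bases held 60.8% in RA, 63.4% in BIO, 51.4% in CHIR99021, 42.7% in DMSO, 50.4% in VC and 56.9% in ddH2O. BIO thus had the most of the longer tags of miR-25-3p and miR-93-5p and the least of the shorter tag of miR-92a-3p, and DMSO lay at the other end for all 3 arms. Tags of 18 and 19 bases among all microRNA tags followed the same extremes, with 3.96% in RA, 1.70% in BIO, 3.38% in CHIR99021, 4.98% in DMSO, 4.77% in VC and 3.42% in ddH2O, so the difference was not limited to the members, and its part in the levels above was not tested. When the most abundant tag alone was counted, 3 member arms were called lower in BIO against DMSO, out of 14 compared, where 12.9% of all arms were called in either direction. They were miR-92a-3p at a log2 ratio of -2.01, miR-18b-5p at -1.12 and miR-20b-3p at -1.44.

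**Figure D5:**
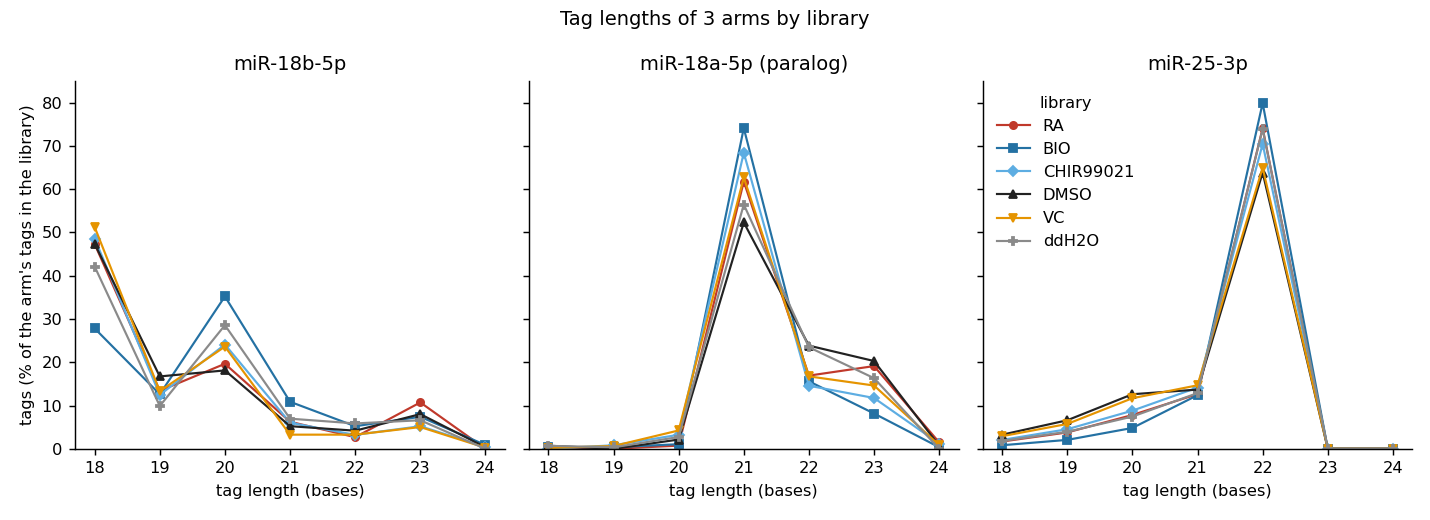
Share of an arm's tags by tag length in bases for miR-18b-5p, its miR-17-92 paralog miR-18a-5p and miR-25-3p, with 1 line per library. MiR-18b-5p peaks at 18 bases (42.1 to 51.3%) except in BIO, where 20 bases lead (35.2%), and miR-25-3p peaks at 22 bases, highest in BIO (79.9%) and lowest in DMSO (63.8%).

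By seed, the members supplied most of the tags in both large families. The miR-17 seed AAAGUGC was carried by 6 arms, miR-93-5p, miR-106b-5p, miR-20b-5p and miR-106a-5p from the members and miR-17-5p and miR-20a-5p from miR-17-92. These summed to 9862 CPM in RA, 6430 in BIO, 7566 in CHIR99021, 6593 in DMSO, 9807 in VC and 9225 in ddH2O, and the members held 83.9% of this in RA, 79.0% in BIO, 79.5% in CHIR99021, 77.3% in DMSO, 82.4% in VC and 81.3% in ddH2O. The sum was high where miR-93-5p was high, in RA, VC and ddH2O, but miR-93-5p is itself its largest part, 6018 of 9862 CPM in RA. The higher sum in RA than in DMSO rests on the scaling. TMM moves log2 ratios of RA to DMSO by -0.58, and all deposited tags as the total by -1.60.

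The seed AUUGCAC was carried by miR-25-3p and miR-363-3p from the members, the shared miR-92a-3p, and miR-92b-3p, miR-32-5p and miR-367-3p from elsewhere. This family summed to 55076 CPM in RA, 50259 in BIO, 53493 in CHIR99021, 64442 in DMSO, 66596 in VC and 68313 in ddH2O. The members' own arms held 66.2% of it in RA, 77.7% in BIO, 77.7% in CHIR99021, 72.9% in DMSO, 73.0% in VC and 74.1% in ddH2O, and the shared miR-92a-3p held 28.2% in RA, 17.9% in BIO, 20.1% in CHIR99021, 23% in DMSO, 23% in VC and 21.7% in ddH2O. RA thus drew the least of this seed from the members' own arms and the most from miR-92a-3p. Arms were placed by the seed of their most abundant tag. All miR-363-3p tags are therefore included, although 40.8% of them over all libraries began 1 base later. In the pair with the seed AAGGUGC, miR-18b-5p held 45.2% of the tags in RA, 44.9% in BIO, 50.2% in CHIR99021, 50.5% in DMSO, 45.7% in VC and 48.1% in ddH2O, beside miR-18a-5p. The seed GUGCAAA was almost wholly the shared miR-19b-3p, 95.8 to 98.2%, with miR-19a-3p as the rest.

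The arms whose profile over the 6 libraries was most like that of each cluster were found by the root mean square difference of log2(CPM + 1), each profile centred on its own mean, over 239 other arms at 100 CPM or more on average. Nearest to the own arms of miR-106a-363 were miR-16-1-3p (0.08), miR-294-3p (0.10) and let-7b-5p (0.11), where the median arm differed by 0.46. Nearest to miR-106b-25 were miR-17-5p (0.11), miR-200c-3p (0.12) and miR-107-3p (0.12), where the median arm differed by 0.42. MiR-17-5p, of the paralogous cluster, had 1050 CPM in RA, 956 in BIO, 1070 in CHIR99021, 1011 in DMSO, 1170 in VC and 1168 in ddH2O. These arms vary little over the libraries, as the sums of the clusters do, and the measure is a description over 6 libraries. The profile of a cluster is that of its summed own arms, mostly miR-25-3p for miR-106b-25 and mostly miR-363-5p for miR-106a-363, and need not hold for each arm.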

How the data were processed

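Small RNA of J1 cells was sequenced in 6 groups of 1 library. Per the labels' protocols, TRIzol RNA (1 µg) went into a TruSeq RNA preparation, and the submitters' processing notes name mm9. The label of BIO says that its raw data are lost. The deposited files list each distinct sequence with its raw count and, as the other column, its length of 18 to 44 bases. Trimming and filters are not given in the sources used here.

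Tags of 18 to 26 bases were matched exactly to GENCODE M21 hairpins (GRCm38) and assigned to an arm by their midpoint. Tags of several arms were split evenly, arms sharing their leading tag were treated as 1, and tags that also match Gm42418 or an rRNA, snRNA, snoRNA, scaRNA or mitochondrial RNA were not used. Sequences are RefSeq's (GRCm38.p6), and all 9 hairpins matched by symbol. CPM is counts in 1000000 microRNA tags of the library, and log2 ratios use a pseudocount of 0.5. Every member arm at 10 CPM or more was described, seed relatives by their most abundant tag, and similar arms by the stated distance. The members and lists were chosen with earlier results of these data known. Alternatives changed scaling (TMM from edgeR 4.0.16, median of ratios from DESeq2 1.42.0, all tags), the minimum, the tags counted and the control library. Counting was tested on simulated data. Python 3.11.15, NumPy 2.4.6 and SciPy 1.17.1 were used.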

Additional observations from a re-analysis of the deposited data

Results flagged for a closer look

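Tags with 1 untemplated 3′ C are left out of the main counts. They were at least 10-fold more frequent in CHIR99021 than in both vehicle libraries for 4 member arms, a limit chosen after the values were seen. The number of all arms that pass this limit with such an end is not given here, so the 4 are not read as particular to the members. MiR-25-3p carried such an end on 2.35% of its tags in CHIR99021 (2.24 to 2.48%, Clopper-Pearson), with 1432 tags there, 0 in RA, 5 in BIO, 4 in DMSO, 9 in VC and 5 in ddH2O. Nearly all of these were 1 sequence, shown with the untemplated base in capitals and found 1431 times in CHIR99021.
miR-25-3p with 1 C: cattgcacttgtctcggtctgC
MiR-106b-5p carried the C on 2.26% of its tags in CHIR99021 (1.67 to 2.99%), with 48 tags there and 0 to 4 in each other library. MiR-93-5p stood at 0.791% in CHIR99021 (0.586 to 1.04%), with 49 tags there and 3 to 6 in each other library. Another miR-93-5p tag, which ends in CG after 21 templated bases, had 115 counts in CHIR99021 and 0 in each other library. Its G is the same as base 23 of miR-93-5p, so it differs from the full sequence at base 22 alone. The C of the miR-25-3p tag shown also sits at base 22, as does the C of the 48 miR-106b-5p tags in CHIR99021. For miR-92a-3p the share with 1 C was 0.377% in CHIR99021 (0.289 to 0.482%), with 62 tags there and 3 to 10 in each other library. C or G at base 22 of miR-92a-3p was on 60 tags in CHIR99021 and 0 to 6 in each other library. Over all microRNA arms 1 untemplated C was on 0.527% of tags in CHIR99021, against 0.115% in DMSO and 0.129% in ddH2O. The cause was not tested.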

How the results depend on the processing

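No paired analysis was possible because each group has 1 library and the replicate number carries no pairing. Of 999 arm values under alternatives, 747 moved less than their counting interval, 250 moved more and 2 called values changed sign, and 40 calls differed. With all tags as the total, 14 member arms were called in RA (main 4; 67.9% of all arms, main 39.8%) and 4 in CHIR99021 (main 0; 54.3% of all arms, main 18.2%) against DMSO, since this moves all log2 ratios by -1.60 in RA and -0.92 in CHIR99021; miR-106a-3p turned to -0.40 in RA. With the other vehicle as control, 2 members were called in RA (33.0% of all arms), 1 in BIO (13.7%), 2 in CHIR99021 (20.3%) and 2 in VC (10.2%), and miR-92a-2-5p turned to 0.59 in RA. At a minimum of 50 CPM, which leaves fewer arms, 2 were called in RA, 0 in VC (main 1) and 1 in ddH2O (main 2). Counting the most abundant tag alone gave 3 in BIO (main 0; 12.9% of all arms, main 6.92%). In ddH2O against DMSO 1 was called when tags of several hairpins were left out, when starts were held within 2 bases and when untemplated ends were counted, each without miR-18b-3p, whose main ratio was close to 2-fold. The depth of RA, where 3 counts are 4.10 CPM, limits the rare 3p arms.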
